A study of Drosophila melanogaster with 4 samples.

Results

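This account concerns the regions of histone H3 dimethylated at lysine 4 (H3K4me2) that lie in heterochromatin-linked sequence and on chromosome 4 of Drosophila melanogaster. From the list that combines both replicates, enriched regions were taken if they lay on chromosome 4, on one of the assembled heterochromatin scaffolds (2LHet, 2RHet, 3LHet, 3RHet, XHet and YHet), or with their midpoint in the 2 Mb of 2L, 3L, 3R or X that lie next to the centromere. This gave 330 of 4991 regions, of which 63 were on chromosome 4, 50 on the scaffolds and 217 in the arm ends. Position alone chose them, and no score or length was used. The background was the rest of 2L, 3L, 3R and X, with 3613 combined regions. Regions on 2R and on other sequences were in neither set.

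The material was nuclei of wild-type larvae of the Oregon-R-modENCODE strain at the third instar, the stage before the pupa forms. Chromatin was precipitated in 2 replicates with an Active Motif antibody against H3K4me2 and sequenced (ChIP-seq), and 2 input samples of the same strain and stage served as controls. The values are lists of enriched regions called by the authors, 1 for each replicate and 1 combined. The same sets held 316 of 4752 regions in replicate 1 and 307 of 4701 in replicate 2. Whether the replicates were collected separately is not in the labels, and their spread may thus be technical. The labels do not give the sex of the larvae either, on which the amount of Y chromosome depends. Nuclei came from whole animals, so a region can stand for some tissues only.

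H3K4me2 is a mark of promoters and enhancers, both where transcription is under way and where it is primed to start. Heterochromatin, by contrast, is packaged with H3 methylated at lysine 9 and the protein HP1a, is rich in transposons and satellite repeats, and surrounds the centromeres and fills most of the Y chromosome. It still holds genes, and some of them, such as light and rolled, depend on that setting for normal expression. Chromosome 4 is a small chromosome whose gene-bearing arm is coated with HP1a and with the chromosome-specific protein POF, and yet many of its genes are transcribed. On the Y chromosome the known genes include large fertility genes that are active in the male germline. The background in this paragraph is general knowledge and not a result of these lists. The lists name no genes, so each region is given by its position in FlyBase release 5.

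The 3 kinds of sequence differed widely in how much of them was marked. Enriched regions covered 14.4% of chromosome 4 in replicate 1 and 15.1% in replicate 2, a mean of 14.8% ± 0.526 (SD, n = 2). The scaffolds had 1.43% and 1.44% of their 9.28 Mb covered, with a mean of 1.44% ± 0.00427. The arm ends had 10.9% and 10.6% of their 8 Mb covered, with a mean of 10.7% ± 0.204. In the rest of 2L, 3L, 3R and X, 17.4% and 17.0% was covered, with a mean of 17.2% ± 0.271. All 3 kinds were thus below the background in both replicates, with differences (members minus background) of −2.44 ± 0.797 percentage points on chromosome 4, −15.8 ± 0.275 on the scaffolds and −6.48 ± 0.0669 in the arm ends (SD, n = 2). Each of these gaps is larger than the spread between the replicates. That spread reflects repeated calls on the same sequence, and does not measure how much one stretch of chromosome differs from another. Within the background, the mean covered share ran from 15.9% on the rest of 2L to 18.7% on the rest of X.

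**Figure D1:**
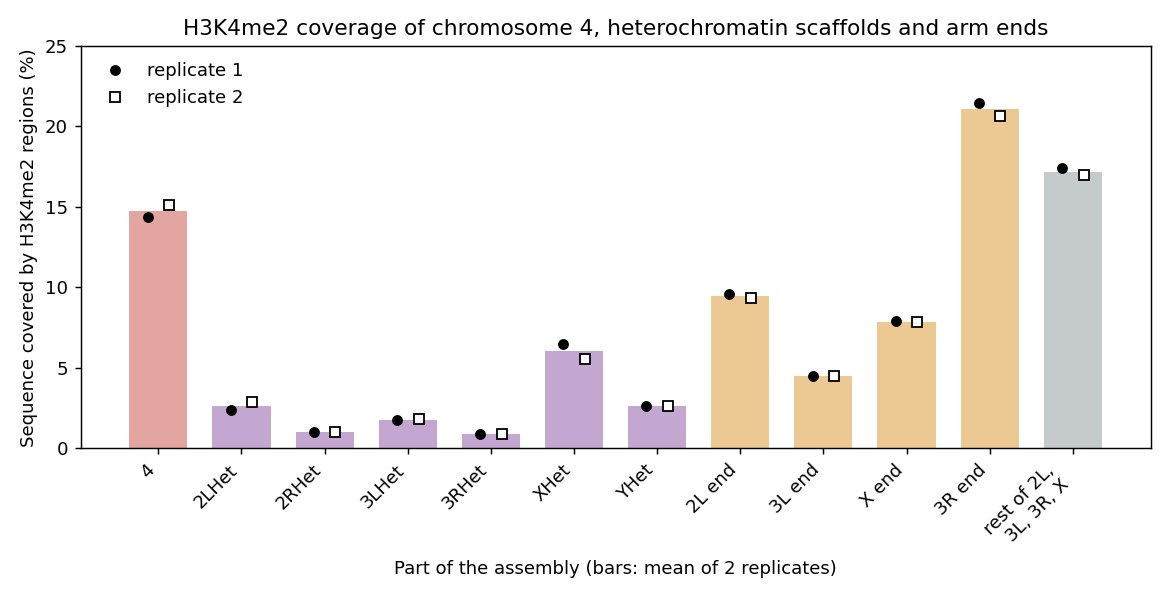
Covered share of sequence, in percent, for chromosome 4, each heterochromatin scaffold, each centromere-proximal arm end and the background. Points are the 2 replicates and bars their mean. The end of 3R, at 21.1%, is the only one of these sequences above the background of 17.2%, and 3RHet, at 0.913%, is the lowest.

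Numbers of regions per Mb followed the order of the covered shares except on chromosome 4. Chromosome 4 had 42.2 and 42.9 regions per Mb in the 2 replicates (mean 42.5 ± 0.523), against 38.3 and 37.8 in the background (mean 38.1 ± 0.354). It thus had no fewer regions per Mb than the background in either replicate, while less of it was covered. Its densities rest on 57 and 58 regions, whose counting error was not estimated, so the small excess over the background may lie within it. The scaffolds had 5.17 and 5.06 regions per Mb and the arm ends 26.4 and 25.3, both below the background. Single regions were shorter in all 3 kinds of sequence, pooled, than in the background. Their median lengths in replicates 1 and 2 were 2737 and 2774 bp on chromosome 4, and 2653.5 and 2645 bp on the scaffolds. In the arm ends they were 3195 and 3231.5 bp, against 3500 and 3476 bp in the background.

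Long regions made up a smaller share of all 3 kinds of sequence, pooled, than of the background, though in the arm ends the gap was within counting error. A length of 5 kb or more was seen on chromosome 4 for 9 of 57 regions (15.8%) in replicate 1, with an exact 95% interval of 7.48 to 27.9%, and for 9 of 58 (15.5%, 7.35 to 27.4) in replicate 2. On the scaffolds it was 1 of 48 (2.08%) and 1 of 47 (2.13%), and in the arm ends 49 of 211 (23.2%) and 46 of 202 (22.8%). In the background it was 28.9% of 3445 regions in replicate 1 and 28.2% of 3400 in replicate 2. The intervals of chromosome 4 lie below both background shares, whereas those of the arm ends (17.7 to 29.5% and 17.2 to 29.2%) include them. The arm ends also differed in direction. At the end of 3R the shares were 31.2% and 30.7%, above the background, and over the ends of 2L, 3L and X they were 16.9% and 16.7%. These intervals hold counting error alone and take regions that lie next to each other as independent.

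Scores, a number that the authors attached to each region on a scale the files do not state, were compared by rank within a list and, further on, between matched regions. Chromosome 4 had 10 of 57 regions above the median of their list in replicate 1 (17.5%, 8.75 to 29.9) and 21 of 58 in replicate 2 (36.2%, 23.99 to 49.9). On the scaffolds 9 of 48 (18.8%, 8.95 to 32.6) and 10 of 47 (21.3%, 10.7 to 35.7) lay above it. In the arm ends 107 of 211 (50.7%) and 106 of 202 (52.5%) lay above it, against 50.8% and 50.4% of background regions. Chromosome 4 and the scaffolds thus held fewer high-scoring regions in both replicates, although on chromosome 4 the size of the gap depended on the replicate. The difference (chromosome 4 minus background) was −33.2 percentage points in replicate 1 and −14.1 in replicate 2. The arm ends pooled differed from the background by 1.03 ± 1.54 percentage points (SD, n = 2), which is within the spread, but this pools ends of opposite direction. The difference was 10.2 ± 1.11 at the end of 3R and −6.14 ± 1.99 over the ends of 2L, 3L and X. In the combined list, 38.1% of regions on chromosome 4 (26.1 to 51.2) scored above the median, against 50.2% of the background, which lies inside that interval.

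Differences from the background were put to an exact two-sided sign-flip permutation test over the replicates, for the covered share, the share above the median and the median length of each kind of sequence. With n = 2 the exact test cannot go below p = 0.5, which it gave for 8 of the 9 comparisons. The exact p was 1 for the share above the median in the arm ends, where the replicates differed in direction. No comparison could therefore pass 0.05, and the statements rest on the values and their spread. A covered share also depends on the uniquely alignable part of a sequence, which was not measured, and its part in these differences was not tested.

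Pooled over each kind of sequence, the nearest neighbour of a region lay farther away than in the background, though not in every arm end or scaffold. On chromosome 4 this did not go with fewer regions per Mb than in the background (means of 42.5 and 38.1). On chromosome 4, 36 of 57 regions (63.2%) in replicate 1 and 37 of 58 (63.8%) in replicate 2 had a neighbour less than 10 kb away. On the scaffolds 23 of 48 (47.9%) and 21 of 47 (44.7%) had one, and in the arm ends 162 of 211 (76.8%) and 151 of 202 (74.8%). In the background 80.1% and 79.6% of regions had one. The median distance to the nearest neighbour was 6.30 and 5.94 kb on chromosome 4, 12.6 and 12.7 kb on the scaffolds, and 3.62 and 3.45 kb in the arm ends, against 2.92 and 3.00 kb in the background. The ends of X and 3R went the other way, with 87.8% and 87.8% (X) and 87.1% and 85.2% (3R) of regions near a neighbour and median distances of 2.19 and 2.27 kb (X) and 2.79 and 2.92 kb (3R). On 2L it was 61.5% and 56.3%, and on 3L 52% and 52%. Of the 3 kinds, the scaffolds pooled had the widest spacing, but they were not alike. On 3RHet 0 of 8 regions had a neighbour less than 10 kb away in either replicate, and on YHet 4 of 4 in both. On XHet it was 4 of 4 and 2 of 3, although the median distances of XHet and YHet were above the background. On 2LHet the median distance was 0.744 kb over 3 regions in replicate 1 and 42.5 kb over 4 in replicate 2.

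Regions of chromosome 4 were scattered along its length, in small pieces that left most of the sequence uncovered. In windows of 100 kb the mean covered share of the replicates lay between 8.85% (1100001 to 1200000) and 23.8% (500001 to 600000), and no window was empty. High windows were scattered, with 21.8% at 1200001 to 1300000, 19.3% at 1000001 to 1100000 and 18.3% at 100001 to 200000. The longest stretches without a region in either replicate were 80.8 kb (247470 to 328248), 79.9 kb (382717 to 462583) and 79.6 kb (726541 to 806152). The combined list placed 0 regions wholly inside any of them. At the start of the sequence, the first combined region began at 61886.

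**Figure D2:**
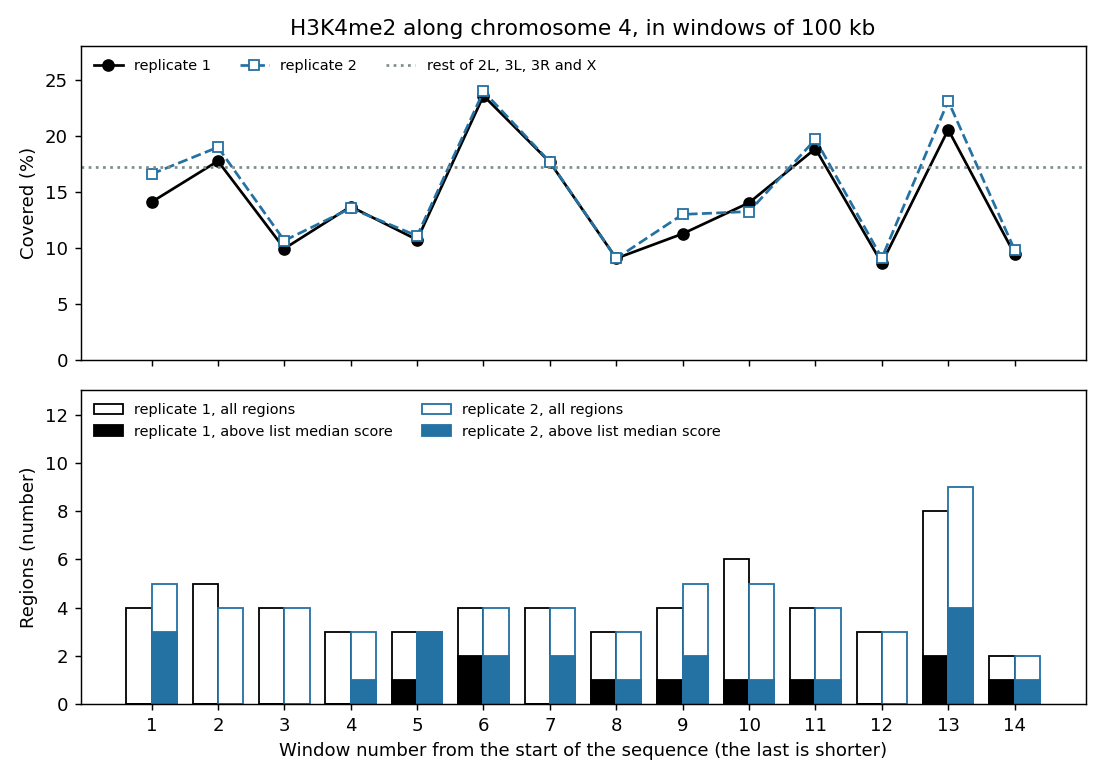
Chromosome 4 along its assembled length of 1.35 Mb, in windows of 100 kb numbered from its start. The upper panel gives the covered share in percent for each replicate, with the background mean as a dotted line, and the lower panel the number of regions, with those above the list median score filled. The highest window is the sixth, at 23.8%, and the lowest the twelfth, at 8.85% (means of 2 replicates).

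Grouped by gaps of less than 10 kb, the 63 combined regions of chromosome 4 formed 36 runs. Of these, 17 runs had 2 regions or more and together held 44 regions, and 19 regions stood alone. The longest run held 7 regions between 1280116 and 1319833, a span of 39.7 kb of which 42.7% was covered. It includes 2 of the 3 highest scores found in both replicates on this chromosome. At the other end of the chromosome, a run of 4 regions lay between 61886 and 93079 (31.2 kb, 47.6% covered), with combined scores of 0.966 to 1.48.

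Of the chromosome 4 regions present in both replicates, the highest scoring lay at 699744 to 702585 (2.84 kb), with a score of 1.99 in replicate 1, 1.81 in replicate 2 and 1.89 in the combined list. It outranked 75.6% of replicate 1 and 77.6% of replicate 2. Next came 1311595 to 1313888 (2.29 kb), with 2.05, 1.80 and 1.83 in the same lists, and 1285583 to 1288049 (2.47 kb), with 1.93, 1.69 and 1.81. All 3 were shorter than the median background region. Both replicates placed them above the list medians of 1.55 in replicate 1 and 1.43 in replicate 2, and the highest rank among them was 79.1%, at 1311595 in replicate 1.

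The longest region of the chromosome was not among its strongest, whereas the second longest scored close to the leading regions. The longest, 147764 to 158901 (11.1 kb), scored 1.12 in the combined list, below that list's median of 1.35. Replicate 2 called it whole, at 11117 bp, with a score of 1.20, whereas replicate 1 split it and gave its larger piece, of 7667 bp, a score of 1.05. The region at 1044477 to 1055548 (11.07 kb) scored 1.84 in replicate 1, 1.80 in replicate 2 and 1.80 in the combined list. Both replicates called this region whole, at 11041 and 10797 bp, and ranked it above the median.

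Length and score went together less closely on chromosome 4 and the scaffolds than in the background. Spearman's rho between length and score was 0.41 over 57 regions of replicate 1 and 0.42 over 58 of replicate 2 on chromosome 4, and 0.43 over 48 and 0.42 over 47 on the scaffolds. It was 0.68 over 211 and 0.64 over 202 regions in the arm ends, against 0.73 over 3445 and 0.73 over 3400 in the background. These are descriptions across regions of a shared library, and regions are not replicates. The scaffolds had only 1 region of 5 kb or more per replicate, above the list median score in both. At 2.5 to 3 kb, 3 of 17 and 1 of 14 scaffold regions were above it, against 46.8% and 42.5% in the background. At 3 to 5 kb it was 4 of 13 and 7 of 16, against 56.95% and 59.0%. On chromosome 4 the difference from the background was seen among long regions. Of the chromosome 4 regions of 5 kb or more, 3 of 9 in replicate 1 and 5 of 9 in replicate 2 scored above the list median, against 83.9% and 83.0% of background regions of that length.

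Among regions of 3 to 5 kb, 0 of 12 on chromosome 4 in replicate 1 and 4 of 14 in replicate 2 were above the median, against 56.95% and 59.0% in the background. Between 2 and 2.5 kb the order was turned round, in the arm ends as well. Of the chromosome 4 regions of 2 to 2.5 kb, 3 of 16 (18.8%) in replicate 1 and 4 of 11 (36.4%) in replicate 2 were above the median, against 7.76% and 7.73% in the background. In the arm ends it was 21.7% and 19.0%. Under 2 kb, 0 of 5 and 0 of 6 regions of chromosome 4 were above the median. Between 2.5 and 3 kb chromosome 4 had 4 of 15 (26.7%) and 8 of 18 (44.4%), against 46.8% and 42.5%. Compared within a length class, chromosome 4 was thus below the background from 3 kb up in both replicates and above it at 2 to 2.5 kb. With 5 to 18 regions in each length class, these shares carry wide counting error.

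**Figure D3:**
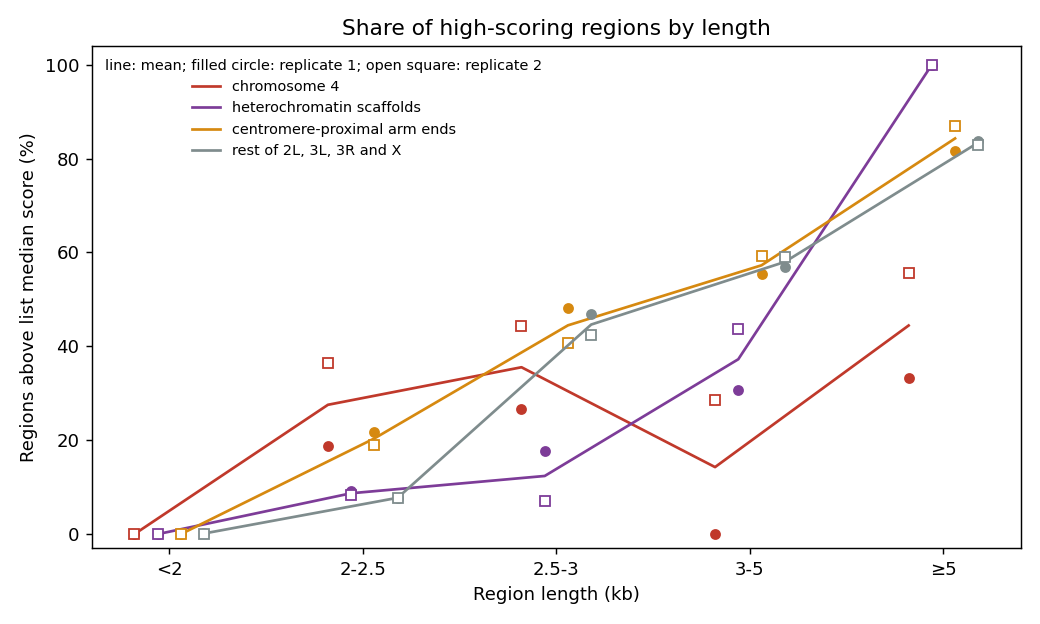
Share of regions scoring above their list's median, in percent, by region length, for chromosome 4, the scaffolds, the arm ends and the background. Filled circles are replicate 1, open squares replicate 2 and lines their mean, and the scaffold point at 5 kb or more is a single region per replicate. In the class of 5 kb or more, 83.9% and 83.0% of background regions exceed the median, against 3 and 5 of 9 on chromosome 4.

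The scaffolds carried few regions, and most of these were short. The covered share in replicates 1 and 2 was 6.48% and 5.57% on XHet, 2.63% and 2.61% on YHet, 2.40% and 2.91% on 2LHet, 1.75% and 1.82% on 3LHet, 1.03% and 1.00% on 2RHet, and 0.919% and 0.908% on 3RHet. XHet stood highest in both replicates and 3RHet lowest. YHet and 2LHet changed places between the replicates, and their means of 2.62% ± 0.00917 and 2.65% ± 0.360 (SD, n = 2) do not differ beyond that spread. Of the 50 combined regions, 25 fell into 10 runs with gaps of less than 10 kb and 25 stood alone.

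On XHet the 4 combined regions lay together, between 59540 and 86560 (27.02 kb), and the rest of the scaffold held no combined region. In the replicate lists, where the last region ended slightly earlier, the 117.6 kb from 86550 on were empty. The region at 59540 to 63540 (4.00 kb) had the highest score of any scaffold region, at 2.32 in replicate 1, 2.01 in replicate 2 and 2.12 combined. It outranked 93.6% and 90.2% of all regions in the 2 lists, a level that no chromosome 4 region found in both replicates reached. Its neighbour at 73626 to 78961 was the longest scaffold region (5.34 kb) and scored 1.93, 1.69 and 1.78 in the same lists. The region at 83997 to 86560 had a combined score of 1.65, and the one at 67856 to 69502, with 0.279, was found in replicate 1 alone. XHet was thus the exception among the scaffolds in score, with 3 of 4 regions in replicate 1 and 3 of 3 in replicate 2 above the list median.

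On YHet the 4 regions also lay together, between 304591 and 329264 (24.7 kb), and all 4 were found in both replicates. The first 304.6 kb of the scaffold, 87.8% of its length, held none in either replicate. The 2 outer regions, 304591 to 307658 and 327068 to 329264, had combined scores of 1.58 and 1.63, above that list's median. Neither was above the median in both replicates, with 1.49 in replicate 1 and 1.70 in replicate 2 at 304591, and 1.84 and 1.43 at 327068, where the score of replicate 2 lay just under the median. The 2 between them, 312520 to 314595 and 319792 to 321887, had 1.12 and 1.31. They were short, with medians of 2071.5 and 2057.5 bp in the 2 replicates. Since the sex of the larvae is not given, the share of nuclei that held a Y chromosome is unknown.

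On 2LHet a pair of regions at 29628 to 33498 and 34043 to 36802 (combined scores 1.62 and 1.19) was followed by single regions at 167066 to 169658 (1.39) and 253401 to 255743 (0.553). The last of these was found in replicate 2 alone. The covered share of 2LHet was the lower one in replicate 1.

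The 8 regions of 3RHet were all found in both replicates and all stood alone. They lay at 66741 to 68775, 1704084 to 1706864, 1766489 to 1770207, 1806073 to 1808995, 1821583 to 1825716, 1897158 to 1899518, 1934128 to 1937023 and 2473709 to 2476884. Their combined scores ran from 0.739 to 1.32, all below the list median of 1.35, and 0 of 8 in replicate 1 and 1 of 8 in replicate 2 scored above the median. Between the first region and the second, 1635 kb held no region in either replicate, or 65.0% of the scaffold. This was the longest unmarked stretch in the sequences examined here.

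The 14 regions of 2RHet were spread over 3 Mb. Towards its start were the regions at 198223 to 201663 (combined score 1.47), 333771 to 334948 (0.298), 337081 to 339615 (0.431), 389242 to 393152 (1.46), 469476 to 472264 (1.19) and 475202 to 476795 (0.367). After 857 kb without a region came 1333765 to 1336352 (1.21), 1619669 to 1622093 (0.744), 2317152 to 2318796 (0.129) and 2775412 to 2777846 (0.784). The last 4 were 2901316 to 2904517 (1.82), 3176344 to 3180463 (1.24), 3182404 to 3184307 (0.227) and 3197557 to 3201409 (1.01). The region at 2901316, with 1.90 in replicate 1 and 1.77 in replicate 2, had the second highest combined score of the scaffold regions and the second highest in replicate 2, but was below XHet 73626 in replicate 1. It stood 123 kb from its nearest neighbour. Of the 14 regions, 11 were found in both replicates, and the 3 others were at 333771 (replicate 2 alone), 475202 and 2317152 (replicate 1 alone), all with combined scores below 0.4.

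The 16 regions of 3LHet were all found in both replicates. In its first part they lay at 205770 to 208754 (combined score 1.15), 410001 to 412612 (1.11), 459075 to 461643 (0.952), 592583 to 596717 (1.26), 599524 to 601994 (1.17), 605701 to 608266 (1.10), 700984 to 703668 (1.49) and 708059 to 710733 (1.45). After 684 kb without a region, the others followed at 1394323 to 1397666 (0.888), 1560869 to 1564405 (0.741), 1566922 to 1571345 (0.941), 1717053 to 1720194 (0.582), 2189058 to 2191181 (0.482), 2243040 to 2245616 (1.31), 2397324 to 2400536 (1.61) and 2409387 to 2411809 (0.699). Only 3 of the 16, at 700984, 708059 and 2397324, were above the median of the combined list. The second longest scaffold region was here, at 1566922 to 1571345 (4.42 kb), and scored low in both replicates (0.993 and 0.975).

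The 4 arm ends did not behave alike. That of 3L was covered to 4.51% in replicate 1 and 4.48% in replicate 2, against 17.1% and 16.7% over the rest of that arm. On X it was 7.92% and 7.85%, against 18.8% and 18.6%, and on 2L 9.58% and 9.33%, against 16.1% and 15.7%. On 3R it was 21.5% and 20.7%, against 17.5% and 17.1%. The difference, end minus rest of the arm, was −6.43 ± 0.0797 percentage points on 2L, −12.4 ± 0.294 on 3L, −10.8 ± 0.131 on X and 3.74 ± 0.253 on 3R (SD, n = 2). Thus 3 of the 4 ends were below their arm and that of 3R above it. Without 3R, the covered share of the 3 other ends was 7.33% in replicate 1 and 7.22% in replicate 2, a mean of 7.28% ± 0.0825.

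Read in bins of 250 kb, the ends differed in how the covered share ran with distance, and no bin was empty. On 3L the 3 bins next to the centromere had means of 1.03%, 0.902% and 1.26%, and only the seventh bin, at 14.9%, came near the rest of the arm. On 2L the first bin had 6.13%, the fourth 11.7%, the fifth 3.66% and the eighth 22.9%. On X the bins ran unevenly, from 3.40% in the first to 21.3% in the fifth and 1.70% in the eighth. On 3R the first bin already had 26.9%, the sixth reached 44.8%, and the eighth had 3.56%. Bins beyond the 2 Mb limit varied widely too, with 3.66% in the ninth of 3L and 47.0% in the twelfth of X. Distances count from the end of the assembled arm, and the length of unassembled sequence between that end and the centromere is not known here.

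**Figure D4:**
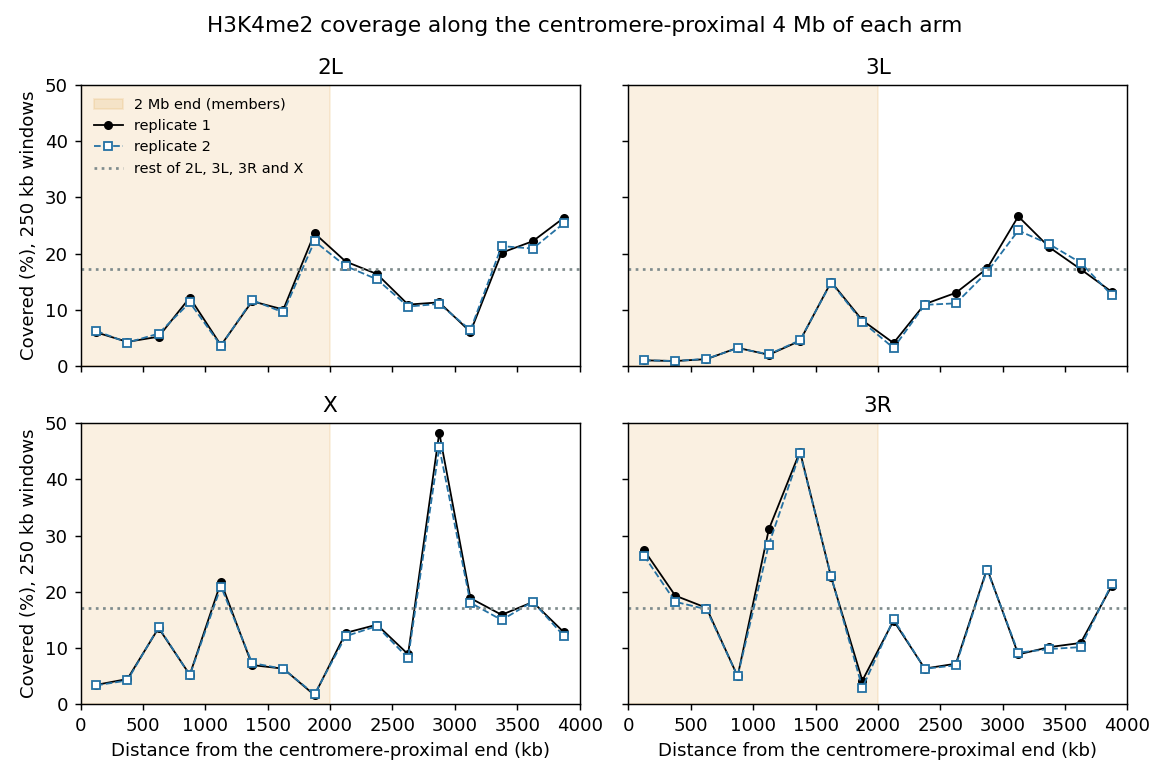
Covered share in bins of 250 kb against the distance from the centromere-proximal end of the assembled arm, in kb, for 2L, 3L, X and 3R, over 4 Mb. Lines are the replicates, shading marks the 2 Mb of the members, and the dotted line is the background mean. The first 3 bins of 3L stay below 1.3%, whereas 3R reaches 44.8% in its sixth bin. The highest bin shown, at 47.0%, is the twelfth of X, outside the shading.

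At the end of 3R, 56 of 93 regions (60.2%, 49.5 to 70.2) in replicate 1 and 54 of 88 (61.4%, 50.4 to 71.6) in replicate 2 scored above the list median. The highest lay at 1457133 to 1464987 (7.86 kb), with 2.54 in replicate 1, 2.23 in replicate 2 and 2.36 combined, above 98.5% and 98.2% of regions in the replicate lists. The next were 1612786 to 1622370 (9.59 kb, combined 2.32) and 1287571 to 1302310 (14.7 kb, combined 2.22). The longest region of all members, 212576 to 231757 (19.2 kb, combined 1.86), was also here, within 250 kb of the end, and replicate 1 called it in pieces. The regions of this end were long as well, with medians of 3563 and 3694 bp, above the background medians of both replicates, and 31.2% and 30.7% of them spanned 5 kb or more.

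In the 2L end, 38.5% of regions in replicate 1 and 47.9% in replicate 2 scored above the median. Its leading region, 21153263 to 21172348, was long as well as high scoring, at 19.1 kb with 2.38 in replicate 1, 2.11 in replicate 2 and 2.22 combined. It was followed by 21100571 to 21104823 (combined 2.17) and 22426638 to 22430034 (2.05), and the second longest was 21307191 to 21316680 (9.49 kb, 1.56). Of these 4, the one at 22426638 lay closest to the centromere.

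At the end of 3L, 28% of 25 regions in replicate 1 and 32% of 25 in replicate 2 scored above the median, the lowest shares of the 4 ends. The highest scores, at 22708504 to 22712678 (2.32 in replicate 1, 2.01 in replicate 2, 2.14 combined), 22856042 to 22867343 (11.3 kb, combined 2.08) and 22719148 to 22723137 (2.03), all lay in the distal part of the end. The second longest, 22824635 to 22832982 (8.35 kb), scored 1.20. Further in, regions became sparse. The longest stretch of this end without a region in either replicate ran from 24226274 to 24529976 (304 kb). The 3 combined regions nearest to the centromere, at 24021167, 24223983 and 24530014, scored 1.25, 0.868 and 1.17, all below the list median.

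In the X end, 58.5% of 41 regions in replicate 1 and 51.2% of 41 in replicate 2 scored above the median. The leading regions were 20920548 to 20927930 (2.28 in replicate 1, 2.05 in replicate 2, 2.12 combined), 21256351 to 21261786 (2.09 combined) and 21214686 to 21226593 (11.9 kb, 2.05 combined). The longest, 21233227 to 21250813 (17.6 kb, 1.49 combined), was called as 3 regions in replicate 1 and 2 in replicate 2. These last 3 regions lay within 50 kb of one another, in the bin of 21.3%. The end of X was thus sparsely marked, while its regions scored above the list median about as often as those of the background.

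The limit of 2 Mb divides the arms at arbitrary points, and the combined scores of the regions on both sides were as follows. On 2L the nearest member was 21049385 to 21054370 (0.990), and the nearest region beyond it 20924499 to 20928624 (1.37). On 3L they were 22708504 to 22712678 (2.14) and 22464834 to 22466481 (0.225, replicate 1 alone). On 3R they were 1936857 to 1938554 (0.189, replicate 1 alone) and 2023954 to 2025991 (0.399), and on X 20526117 to 20530683 (1.37) and 20392457 to 20396672 (1.71).

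Most members were found in both replicates, sharing at least 1 bp with a region of each. This held for 299 of 330 (90.6%, 86.9 to 93.5), against 86.8% of the background and 87.1% of the whole combined list. It held for 55 of 63 on chromosome 4 (87.3%, 76.5 to 94.4), 45 of 50 on the scaffolds (90%, 78.2 to 96.7) and 199 of 217 in the arm ends (91.7%, 87.2 to 95.01). The shares of chromosome 4 and of the scaffolds lie near the background, and their intervals include it. The background lies just under the interval of the arm ends, but without 3R their share was 90.2% (83.6 to 94.9), an interval that includes it. Another 11 members overlapped replicate 1 alone and 4 replicate 2 alone. Those 15 were weak, with median combined scores of 0.279 for replicate 1 alone and 0.316 for replicate 2 alone, against 1.37 for members found in both.

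In neither replicate were 16 members (4.85%), against 6.64% of background regions. They comprised 5 on chromosome 4, 11 in the arm ends and 0 of 50 on the scaffolds, where the exact 95% interval reaches up to 7.11%. They were short, with a median of 1235 bp. The highest score of any member, 3.17, belonged to one of them, at 1349930 to 1350930 on chromosome 4, a region of 1001 bp close to the end of the sequence at 1351857. Its only near neighbour, 1347486 to 1349159 (0.977), was in neither replicate too, and in the last window of chromosome 4 the combined list covered 17.4% and the replicates a mean of 9.61% ± 0.278.

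A second such case lay at the end of 2L, at 21529369 to 21530369, with 1001 bp and a score of 2.58, the second highest of the members. The other members in neither replicate on chromosome 4 were at 227754 (0.611), 1108257 (0.172) and 1300771 (0.999). In the other arm ends, the highest such scores were 0.706 on 3L (23664756 to 23666016), 0.375 on 3R (1068341 to 1069373) and 0.318 on X (21208135 to 21209903). On the scaffolds every combined region had a replicate call.

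Where a region of each replicate matched the other one to one, the calls were close in position and rank. Over 294 matched member pairs, the scores had a Spearman's rho of 0.948 and a Pearson's r of 0.956, against 0.977 and 0.978 over 3032 background pairs. The points are regions of the same 2 libraries, so these are descriptions. The edges of matched regions lay a median of 50 bp apart on chromosome 4, 47 bp on the scaffolds and 59 bp in the arm ends, against 66 bp in the background.

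Regions of chromosome 4, of the scaffolds and of the 2L end ranked somewhat higher in replicate 2 than in replicate 1. Of the matched pairs on chromosome 4, 37 of 54 (68.5%) had the higher percentile rank in replicate 2, with a median shift of 3.87 percentile points (replicate 2 minus replicate 1). On the scaffolds it was 33 of 45 (73.3%), with a median shift of 1.68, and in the arm ends 93 of 195 (47.7%), with −0.347. The arm ends were not alike, with 30 of 48 (62.5%) and a median shift of 1.80 on 2L, but 48% on 3L, 45.3% on 3R and 33.3% on X. In the background it was 42.1%, with −0.949. On 2RHet 10 of 11 and on 3LHet 14 of 16 pairs ranked higher in replicate 2, but 0 of 3 on XHet. The depth of the libraries is not known here, and its part in this shift was not tested.

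**Figure D5:**
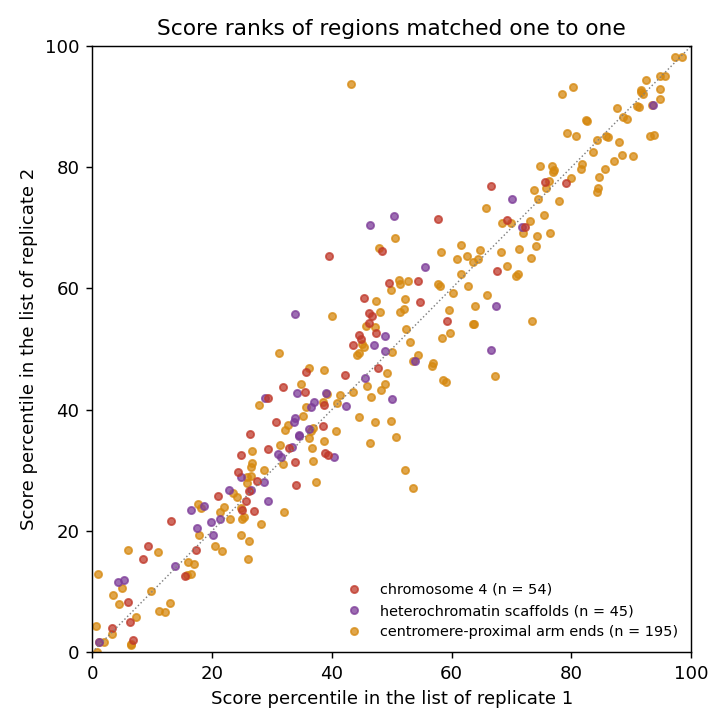
Percentile rank of the score of each matched member within its list, replicate 2 against replicate 1, for chromosome 4, the scaffolds and the arm ends. Points above the diagonal rank higher in replicate 2, as 37 of 54 do on chromosome 4 and 33 of 45 on the scaffolds.

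A few pairs changed rank by a large amount. The most discordant was on 2L at 21464008, with 1.42 in replicate 1 and 2.08 in replicate 2, or percentile ranks of 43.1 and 93.7. A neighbour at 21478658 moved the other way, with 1.62 and 0.981, or 53.5 and 27.03. On chromosome 4 the largest change was at 1292393, with 1.35 in replicate 1 and 1.63 in replicate 2, or ranks of 39.5 and 65.3.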

How the data were processed

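The deposited files are 3 lists of enriched regions, 1 for each H3K4me2 replicate and 1 for the combined replicates. Each region carries a score set by the authors, on a scale and log base that are not stated. Per the submitters' processing notes, the aligner was Bowtie 0.12.7, and coordinates follow FlyBase release 5, per the file headers. How regions were called, at what threshold, and how replicates were merged is not given in the sources used here. Without read counts the depth is unknown, and the inputs were not analysed here.

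Depleted regions were left out, and a start of 0 was read as 1. Covered shares used the sequence lengths in the file headers. Regions overlapped when they shared at least 1 bp. Means and SD are over 2 replicates, and intervals are exact binomial 95% intervals. A percentile rank is the share of its list that a region outranks. Differences between members and background were tested with an exact sign-flip permutation test. Named regions are, for each kind of sequence or arm end, the 3 highest combined scores and the 2 longest among regions found in both replicates, the highest score found in neither, and every scaffold region. Those of the rank comparison and of the limit at 2 Mb were chosen after their values were seen. The members and lists were chosen with earlier results of these data known. The gene table at hand follows release 6, so no region was assigned to a gene and no sequence is printed. Alternatives were the combined list, higher scores only, length limits, joined regions, other widths of the arm ends, other overlap limits and leaving out each replicate. The code, tested on simulated data, ran under scipy 1.17.1, numpy 2.4.6, matplotlib 3.10.9 and Python 3.11.15.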

Additional observations from a re-analysis of the deposited data

Results flagged for a closer look

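The end of 3R differed in direction from the 3 other arm ends. Its covered share was above that of the rest of 3R by 3.74 percentage points (3.91 in replicate 1 and 3.56 in replicate 2). The ends of 2L, 3L and X were below the rest of their arm in both replicates, by 6.49 and 6.38, 12.6 and 12.2, and 10.9 and 10.7 percentage points. The difference between 3R and the other arms was not tested.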

How the results depend on the processing

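No paired analysis was possible because the samples that share replicate numbers are the inputs, which have no values here. Across 13 results, 33 alternatives other than leaving out a replicate gave 12 values within the spread or interval of the reported value and 21 outside it, and 0 called differences turned round. The combined list gave covered shares of 15.9% (chromosome 4), 1.55% (scaffolds) and 11.6% (arm ends), against 18.9% in the background. Its shares above the median were 38.1% (chromosome 4), 26% (scaffolds) and 55.3% (arm ends), against 50.2% in the background. Its median lengths were 2789, 2680 and 3255 bp in the same order, against 3531 bp. Regions above the list median alone covered 4.58%, 0.345% and 6.93%, against 11.4% of the background, so that chromosome 4 lay farther below it than with all regions (14.8% against 17.2%). Arm ends of 1 Mb and 3 Mb had 8.02% and 12.03% covered, against 17.0% and 17.3% of the rest of the arms. With the ends of 2L, 3L and X only, chosen after seeing the data, the covered share was 7.28%, the share above the median 44.4% and the median length 3013.5 bp. With regions of 2 kb or more, the share above the median was 16.4% on the scaffolds and 48.95% in the arm ends, against 51.1%. Joining regions under 500 bp apart gave median lengths of 2799.75 bp on chromosome 4 and 3378.25 bp in the arm ends, against 3704.5 bp. With combined regions shorter than any replicate region left out, 95.2% of those in the arm ends were found in both replicates, against 90.7% of the background. Leaving out a replicate moved the share above the median on chromosome 4 between 17.5% (without replicate 2) and 36.2% (without replicate 1), the lower value being more than 1.5 times below the mean of 26.9%. Depth is unknown, so weakly marked sequence cannot be told from unmarked sequence.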
